A study of Mus musculus with 53 samples.

Results

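The control macrophages of Stat6-/- mice were compared with those of wild-type (WT) mice, both without any cytokine, to ask how far the 2 genotypes differed before IL-4 acted on the cells. Samples were taken by their labels, as every Stat6-/- control (10 samples) and every WT control (20 samples) of the same 5 times (0, 1, 3, 6 and 24 h), which made 30 of the 53 samples of the series. Of 23847 loci in the expression tables, 10919 reached 1 FPKM (sequenced fragments divided by transcript length and by the library's mapped fragments) in at least 1 of these 30 samples and were tested. All samples were bone marrow-derived macrophages of C57BL/6 mice, 8 to 12 weeks old, grown from marrow for 6 days in medium with L929 cell supernatant as the source of macrophage colony-stimulating factor. The Stat6-/- mice lack functional Stat6 throughout the body, so the marrow from which the cells were grown also lacked it. The Stat6-/- samples carried 2 replicate numbers and the WT samples 4, each number present at all 5 times. The study describes its data as coming from individual animals, and the labels do not say whether a replicate number is 1 animal, so p-values here measure the spread between these cultures.

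STAT6 is the transcription factor that the IL-4 and IL-13 receptors activate. On receptor binding, Janus kinases phosphorylate it, and the dimer enters the nucleus and binds palindromic sites, where it induces genes of alternative macrophage activation such as Arg1, Chi3l3 and Clec10a and represses others. In unstimulated macrophages most STAT6 is not phosphorylated. Differences between the genotypes without IL-4 are the baseline against which any response to IL-4 is read.

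The libraries had similar depth. Relative depth, read from the spacing of the lowest FPKM values of 7294 loci, ran from 0.746 to 1.345 in the Stat6-/- samples and from 0.788 to 1.643 in the WT samples, and 10192 to 10317 against 10157 to 10365 loci reached 1 FPKM. The FPKM tables do not give the read totals, so absolute depth is unknown. Defining macrophage markers were high in both genotypes. Csf1r, the receptor for macrophage colony-stimulating factor, ran from 696 to 1077 FPKM in the Stat6-/- samples and from 692 to 1033 FPKM in the WT samples, and Cd68, a lysosomal membrane protein, from 856 to 1388 FPKM and from 899 to 1678 FPKM.

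The 2 Stat6-/- replicates stood apart from each other. Averaged over the 5 times, 406 loci (3.72% of those tested) differed at least 2-fold between Stat6-/- replicate 1 and replicate 2 with the same sign at every time, against 5 to 36 loci (0.0458% to 0.33%) for the 6 pairs of WT replicates. Samples of the same Stat6-/- number deviated together across time (mean correlation of deviations from the group mean 0.68), and those of the same WT number less so (mean 0.206). The time points were therefore not counted as separate replicates. Each replicate number was averaged over its 5 times on the log2(FPKM + 1) scale, 2 Stat6-/- averages were tested against 4 WT averages with limma, and p-values were adjusted over all loci by the Benjamini-Hochberg method, with a threshold of 0.05. Every log2 difference below is Stat6-/- minus WT on that scale, which understates the change of low genes, and follows with its standard error (SE). A second fit used all 30 samples with the replicate number as a random block, and its adjusted p is named as such. On simulated data, with replicate effects of the size seen in WT for both genotypes, nearly as many unchanged as changed loci passed that fit. Its p-values and counts therefore describe how the loci rank and are not support for a difference.

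Stat6 transcripts fell in the Stat6-/- cells but did not disappear. The Stat6 locus (mm10, chr10:127642986-127660987, plus strand) read 14.3 FPKM in the lowest, 20.8 FPKM in the median and 24.0 FPKM in the highest of the 10 Stat6-/- samples, and 70.8, 80.0 and 90.6 FPKM in the 20 WT samples. No Stat6-/- sample came near a WT sample, and on average 25.2% of the WT level remained. The log2 difference was -1.95 ± 0.09 (SE, adjusted p = 0.00458 in limma). The call held without either Stat6-/- replicate and without WT replicate 1, and the adjusted p was 0.0814, 0.0662 and 0.0553 without WT replicate 2, 3 and 4. The IL-4-treated samples of the series showed the same separation, with 17.0 to 22.8 FPKM in 8 Stat6-/- samples and 58.7 to 73.1 FPKM in 15 WT samples. A value per locus does not show which part of the transcript the remaining reads came from.

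Only 1 other locus passed the test on replicate averages, and it lies 0.77 Mb from Stat6. Rnf41, which encodes an E3 ubiquitin ligase (chr10:128411616-128441441, plus strand), ran from 5.73 to 9.40 FPKM (median 8.14) in the Stat6-/- samples and from 10.8 to 14.9 FPKM (median 12.7) in the WT samples. Every Stat6-/- sample lay below every WT sample, and the averages of the replicates were 8.07 and 7.90 FPKM against 12.6 to 13.2 FPKM. Rnf41 fell by 0.63 ± 0.04 on the log2 scale (adjusted p = 0.0311 in limma). Without WT replicate 1, 2, 3 or 4 its adjusted p was 0.0694, 0.257, 0.247 and 0.117, and without the 6 h samples 0.0696. The 2 loci made up 0.0183% of those tested, both were lower, and 1 of them, Stat6, differed by 2-fold or more (0.00916%). No locus passed as higher (0%) in limma, where 1418 loci (13%) had an unadjusted p under 0.05, 498 of them higher (4.56%) and 920 lower (8.43%).

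**Figure D1:**
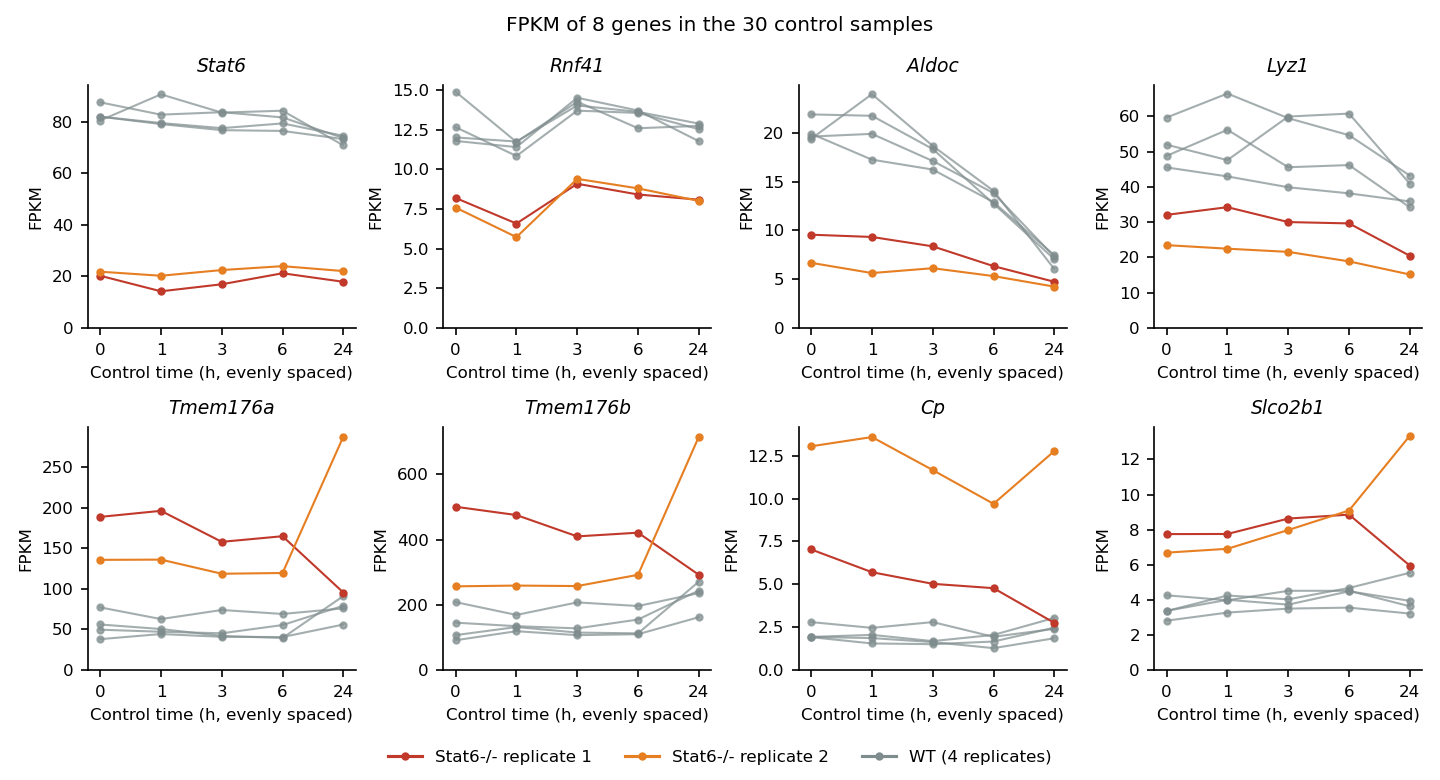
FPKM of 8 genes (vertical axes) in each control sample against time in culture (h, horizontal axes), with Stat6-/- replicate 1 in red, Stat6-/- replicate 2 in orange and the 4 WT replicates in grey. Stat6 and Rnf41 lay below every WT sample at each time, Tmem176a and Tmem176b above the WT samples of the same time, and Cp of Stat6-/- replicate 1 came within the WT range at 24 h.

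Nab2, a corepressor of EGR transcription factors (chr10:127660918-127666703, minus strand), overlaps the end of Stat6 by 70 bases on the other strand. Its averages were 33.7 and 26.5 FPKM in the Stat6-/- replicates and 15.7 to 21.9 FPKM in the WT replicates, without overlap, and it was above all WT samples at 4 of the 5 times. The log2 difference was 0.70 ± 0.15 (adjusted p = 0.134; 1.29e-04 with the replicate block). The library kit did not mark strand, so reads from the shared bases cannot be assigned to Nab2 or Stat6. Among the 49 tested loci within 1 Mb of Stat6, Stat6 itself left out, 5 (10.2%) passed with the replicate block, among them Rnf41, Nab2 and Dtx3. Within 20 Mb the share was 10 of 110 (9.09%), on the rest of the chromosome 15 of 420 (3.57%), and on the other chromosomes 449 of 10388 (4.32%). These shares are descriptions, and whether neighbouring DNA of another strain accompanies the Stat6 allele was not tested.

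**Figure D2:**
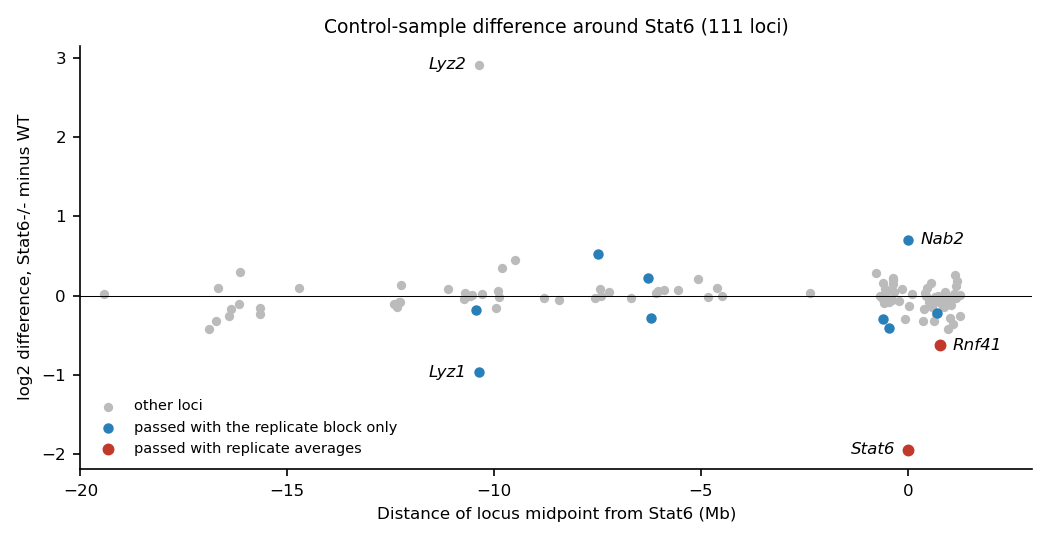
Log2 difference between Stat6-/- and WT control averages (vertical axis) for the 111 tested loci from 20 Mb before to 3 Mb after Stat6, against distance from Stat6 (Mb, horizontal axis). Stat6 at -1.95 and Rnf41 at -0.63 are the 2 loci that passed the test, and most other loci lie near 0. The highest point is Lyz2 at 2.92. Some of its WT samples are listed at 0 FPKM, and its difference turned negative with those 0s as missing.

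More loci separated the genotypes than passed the test on averages. With the replicate block, 475 loci (4.35%) passed, 144 higher (1.32%) and 331 lower (3.03%), and with all 30 samples taken as independent 2441 (22.4%). Both Stat6-/- averages lay beyond all 4 WT averages for 22% of loci. With 2 values against 4, averages can separate in this way without a genotype difference, so this share is a description. The split of the 475 moved with the scaling, to 196 higher and 303 lower after quantile normalization and 206 and 302 after median centring. Both Stat6-/- samples lay above all 4 WT samples at each of the 5 times for 30 loci (0.275%), and below them for 77 loci (0.705%), together 107 (0.98%). Under quantile normalization the same criterion gave 46 and 62 loci, and under median centring 41 and 58. The differences of the 30 and 77 loci were small, with medians of 0.59 and -0.41 on the log2 scale, and 2 and 3 of them reached 2-fold.

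Tmem176a and Tmem176b were higher in the Stat6-/- cells. They encode related membrane-spanning proteins that dendritic cells and macrophages carry in endosomal compartments, and they lie head to head on chromosome 6, with 108 bases between the Tmem176b locus (chr6:48833812-48841374, minus strand) and the Tmem176a locus (chr6:48841483-48845364, plus strand). Tmem176a ran from 95.4 to 287 FPKM (median 147) in the Stat6-/- samples and from 38.0 to 91.1 FPKM (median 53) in the WT samples, and the groups did not overlap. The log2 difference was 1.46 ± 0.18 (adjusted p = 0.0800; 3.82e-04 with the replicate block). Tmem176b was higher too, at 257 to 716 FPKM against 91.6 to 271 FPKM, ranges that overlapped across times, with a log2 difference of 1.28 ± 0.23 (adjusted p = 0.120; 0.00209 with the replicate block). At each time, both Stat6-/- samples were above all WT samples for both genes. The order of the Stat6-/- replicates turned over at 24 h. Replicate 1 held 158 to 196 FPKM of Tmem176a from 0 to 6 h and 95.4 FPKM at 24 h, whereas replicate 2 held 119 to 136 FPKM and then 287 FPKM. In the IL-4-treated samples, Tmem176a stayed apart, at 109 to 242 FPKM in Stat6-/- and 8.25 to 74.4 FPKM in WT cells. The DNA between the 2 loci is shown because both genes start from it. It lies in the RefSeq window of Tmem176a (GRCm38.p6, the mm10 assembly, chr6:48841233-48841532, plus strand), with the bases between the ends of the loci in capitals.
Tmem176a: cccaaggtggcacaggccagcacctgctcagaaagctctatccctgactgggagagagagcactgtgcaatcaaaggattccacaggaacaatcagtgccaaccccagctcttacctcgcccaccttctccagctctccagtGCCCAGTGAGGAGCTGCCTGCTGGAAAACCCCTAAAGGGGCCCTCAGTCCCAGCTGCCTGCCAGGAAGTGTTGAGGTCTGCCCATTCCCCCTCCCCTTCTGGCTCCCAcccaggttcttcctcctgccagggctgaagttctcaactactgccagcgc
Neither TTCNNNNGAA, the spacing that STAT6 prefers, nor TTCNNNGAA, the spacing common to STAT dimers, occurs in the windows of Tmem176a and Tmem176b. Searched over both strands, these letters occur in 5.34% and 6.83% of the 8146 windows of tested loci. Of the 30 loci above WT at all 5 times, 20 had a window and 2 of those (10%) held TTCNNNNGAA, and of the 77 below WT, 60 had a window and 2 (3.33%) held it.

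Cp, which encodes ceruloplasmin, the copper-carrying ferroxidase, was also higher. It ran from 2.75 to 13.6 FPKM in the Stat6-/- samples and from 1.28 to 3.04 FPKM in the WT samples, with averages of 5.06 and 12.2 FPKM against 1.71 to 2.48 FPKM. The replicates thus differed in size, and at 24 h replicate 1 (2.75 FPKM) was inside the WT range of 1.86 to 3.04 FPKM. The log2 difference was 1.54 ± 0.30 (adjusted p = 0.128; 2.88e-05 with the replicate block). With IL-4, Cp ran from 3.19 to 16.6 FPKM in Stat6-/- cells and from 0.249 to 3.86 FPKM in WT cells.

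Other genes separated from WT at all 5 times. They are named after their values were seen, apart from Mmp9, Pfkfb3, Kdm6b and Lyz1, which the naming rule gave. Of the lower ones, Aldoc, a glycolytic aldolase, averaged 7.67 and 5.6 FPKM against 14.8 to 16.4 FPKM in WT, a log2 difference of -1.08 ± 0.10 (adjusted p = 0.0729). Its WT level was 19.4 to 21.9 FPKM at 0 h and 6.05 to 7.46 FPKM at 24 h, and the 24 h gap to the Stat6-/- samples (4.74 and 4.24 FPKM) was the narrowest. Gyg, the glycogenin that primes glycogen chains, averaged 67.0 and 60.1 FPKM against 97.6 to 111 FPKM. Il12rb2, a chain of the IL-12 receptor, averaged 2.53 and 1.74 FPKM against 4.23 to 4.84 FPKM, Csrp1, a LIM-domain protein of the actin cytoskeleton, 47.0 and 44.9 FPKM against 67.2 to 75.7 FPKM, and Fcna, the soluble lectin ficolin A, 10.4 and 9.63 FPKM against 15.2 to 19.8 FPKM. The log2 differences of these 4 genes ran from -0.84 to -0.62, none passed on replicate averages (adjusted p from 0.0780 to 0.0819), and all passed with the replicate block. Lyz1, a lysozyme, was lower as well (29.3 and 20.3 FPKM against 40.5 to 56.7 FPKM, log2 difference -0.97 ± 0.18, adjusted p = 0.122). It shares nearly all of its sequence with Lyz2, for which 5 of the 20 WT samples are listed at 0 FPKM and another at 26961 FPKM, so the split of reads between the pair is uncertain.

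Of the higher ones, Slco2b1, an organic anion transporter, averaged 7.79 and 8.81 FPKM against 3.27 to 4.37 FPKM (log2 difference 0.90 ± 0.10, adjusted p = 0.0780). Mmp9, a secreted gelatinase, averaged 3.26 and 3.45 FPKM against 1.28 to 1.76 FPKM (0.79 ± 0.10, adjusted p = 0.0800), and Pfkfb3, which makes the allosteric activator of phosphofructokinase, 12.6 and 14.2 FPKM against 7.39 to 8.93 FPKM (0.65 ± 0.08, adjusted p = 0.0800). Ear2, an eosinophil-associated ribonuclease with close paralogs whose reads could be shared, averaged 2.41 and 2.01 FPKM against 0.891 to 1.01 FPKM. The 2 Stat6-/- averages of each of these genes were close to each other, unlike those of Cp. The adhesion receptor Vcam1 (1.48 and 1.78 FPKM against 0.234 to 0.884 FPKM), the lysosomal thiol reductase Ifi30 (303 and 300 FPKM against 211 to 230 FPKM), the thromboxane synthase Tbxas1 (67.9 and 73.0 FPKM against 48.4 to 55.1 FPKM) and the histone demethylase Kdm6b (2.09 and 2.44 FPKM against 1.12 to 1.44 FPKM) were higher at every time too, and all passed only with the replicate block.

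**Figure D3:**
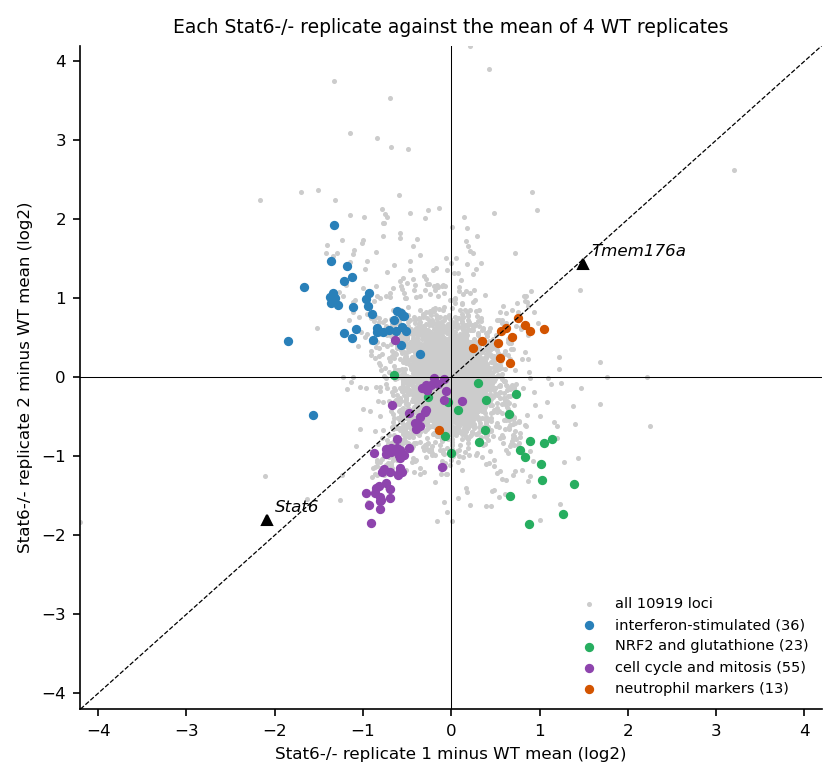
Log2 difference from the WT mean of Stat6-/- replicate 1 (horizontal axis) against that of replicate 2 (vertical axis) for the 10919 tested loci, with 2 loci beyond 4.2 drawn at the axis limit and the dashed line marking equal differences. Genes of the named groups that both replicates share lie along the line, and interferon-stimulated and NRF2 genes lie off it on opposite sides.

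Genes of cell division were lower in the Stat6-/- cells from 0 to 6 h. Of 55 cell cycle and mitosis genes tested, none passed on replicate averages in limma (over all loci 0.0183% did). With the replicate block 21 passed as lower (all loci 3.03%) and 0 as higher (1.32%), and both Stat6-/- averages were below all 4 WT averages for 47, against 12.6% of all loci. The median log2 difference of the 55 genes was -0.79, beside -0.01 over all loci. It was -0.59 in Stat6-/- replicate 1 and -0.94 in replicate 2, measured from the WT mean, and -0.26, 0.00, 0.10 and 0.15 in the 4 WT replicates. Both Stat6-/- samples were below all WT samples for 48 genes at the start (all loci 11.3%), 42 after 1 h (10.1%), 48 after 3 h (13.1%) and 39 after 6 h (10.9%). At 24 h this held for 2 of 55 genes (all loci 6.96%), and the median difference was -0.14. The list median against the mean of all WT samples was then -1.07 in replicate 1 and -0.38 in replicate 2, with the WT samples between -0.92 and -0.23, so that replicate 1 alone was still below all WT samples. No cell cycle gene passed the genotype by time test, which called 0 loci. The count at all times averaged was 49 without Stat6-/- replicate 1 (all loci 38.7%) and 52 without replicate 2 (all loci 30.6%). In bulk RNA, fewer dividing cells and less of each transcript per cell cannot be told apart.

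Single genes differed in how far they followed this course. Kif11, a motor of the mitotic spindle, read 4.53 and 3.46 FPKM at 0 h in the Stat6-/- samples and 7.0 to 12.1 FPKM in the WT samples, and 3.07 and 7.14 FPKM against 3.56 to 8.83 FPKM at 24 h. Its averages differed by -0.92 ± 0.11 on the log2 scale (adjusted p = 0.0780; 0.0298 with the replicate block). The averages of Bub1b, a spindle checkpoint kinase, were 7.02 and 6.01 FPKM against 9.94 to 14.3 FPKM, those of the kinetochore motor Cenpe 1.99 and 1.69 FPKM against 3.02 to 4.22 FPKM, and those of Cdca5, a regulator of cohesin, 4.39 and 3.46 FPKM against 6.17 to 8.72 FPKM. All 4 kept both Stat6-/- averages below every WT average. Ccnb2, a cyclin of mitosis, and Plk1, a mitotic kinase, both named after their values were seen, had larger log2 differences of -1.38 ± 0.33 and -1.21 ± 0.21 (adjusted p = 0.153 and 0.119; 0.0103 and 0.0168 with the replicate block). Ccnb2 was 9.44 FPKM in Stat6-/- replicate 1 and 4.92 FPKM in replicate 2, against 13.2 to 24.2 FPKM in WT. Regulators of entry into S phase were lower with less spread. E2f2, a transcription factor of that step, averaged 5.14 and 5.52 FPKM against 8.00 to 8.72 FPKM (log2 difference -0.56 ± 0.05, adjusted p = 0.0729), and Cdkn2d, an inhibitor of cyclin-dependent kinases, 11.3 and 12.4 FPKM against 17.1 to 19.4 FPKM (-0.58 ± 0.07, adjusted p = 0.0780). Cdkn2d was thus lower together with the genes that promote division. For Ccnb2, E2f2 and Cdkn2d, both Stat6-/- samples lay below all WT samples at all 5 times, 24 h included.

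Many cell cycle promoters carry the CHR element, TTTGAA, and CCAAT boxes bound by NF-Y, through which they are switched on late in the cycle. In RefSeq windows from 250 bases before to 50 bases after the start, searched on both strands, 23 of the 43 cell cycle genes with a window (53.5%) held TTTGAA, 33 (76.7%) held CCAAT and 21 (48.8%) held both, beside 11.7%, 39.3% and 5.05% of the 8146 windows of tested loci. Matches of the 2 motifs can share no more than an end base. The windows of Ccnb2 (GRCm38.p6, chr9:70421505-70421804, minus strand), Plk1 (chr7:122159185-122159484, plus strand) and Kif11 (chr19:37376132-37376431, plus strand) show the arrangement in genes that were lower, with both motifs, or their reverse complements TTCAAA and ATTGG, in capitals.
Ccnb2: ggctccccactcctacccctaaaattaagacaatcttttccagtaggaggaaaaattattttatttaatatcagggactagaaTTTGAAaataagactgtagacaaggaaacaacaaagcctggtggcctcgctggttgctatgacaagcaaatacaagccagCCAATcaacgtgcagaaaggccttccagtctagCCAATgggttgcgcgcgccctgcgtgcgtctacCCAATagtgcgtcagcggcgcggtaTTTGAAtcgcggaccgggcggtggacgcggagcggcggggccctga
Plk1: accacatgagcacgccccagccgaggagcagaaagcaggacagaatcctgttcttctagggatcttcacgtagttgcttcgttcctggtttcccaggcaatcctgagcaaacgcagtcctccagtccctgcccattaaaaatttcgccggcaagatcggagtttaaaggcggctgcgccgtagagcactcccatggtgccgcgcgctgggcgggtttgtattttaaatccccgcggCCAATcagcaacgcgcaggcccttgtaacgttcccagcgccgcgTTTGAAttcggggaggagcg
Kif11: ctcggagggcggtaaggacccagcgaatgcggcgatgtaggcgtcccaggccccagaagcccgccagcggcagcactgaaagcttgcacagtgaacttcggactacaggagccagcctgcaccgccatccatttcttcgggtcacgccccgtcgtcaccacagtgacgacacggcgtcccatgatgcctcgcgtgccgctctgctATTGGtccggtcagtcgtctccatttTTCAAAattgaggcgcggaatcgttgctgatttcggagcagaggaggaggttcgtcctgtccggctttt
The Ccnb2 window holds 3 CCAAT and 2 TTTGAA matches, and those of Plk1 and Kif11 hold 1 of each. Not every lower gene had both: the E2f2 window holds 1 CCAAT and 0 TTTGAA, and that of Cdca5 0 and 2. Of the 77 loci below WT at all 5 times, 60 had a window. TTTGAA occurred in 13.3% of those and both motifs in 6.67%, near the shares over all tested loci. A match describes the letters only, and no binding was measured here.

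Transcripts of neutrophil granules and other myeloid cells were higher. Of 13 neutrophil marker genes tested, none passed on replicate averages in limma and 9 passed as higher with the replicate block (all loci 1.32%). Both Stat6-/- averages were above all WT averages for 11, against 9.37% of all loci. They were below for 1, the collagenase Mmp8, against 12.6%. The median log2 difference was 0.57. The summed level of the markers was 951 and 763 FPKM in the Stat6-/- replicates and 456 to 611 FPKM in the WT replicates. S100a8 and S100a9, the subunits of calprotectin, made up most of it. S100a8 ran from 230 to 478 FPKM (median 274) in the Stat6-/- samples and from 111 to 251 FPKM (median 174) in the WT samples, and at each time both Stat6-/- samples were above the WT samples. The log2 difference of S100a8 was 0.83 ± 0.17 (adjusted p = 0.129; 0.00610 with the replicate block). Lcn2, a siderophore-binding protein, averaged 39.5 and 42.5 FPKM against 17.9 to 24.9 FPKM, and the granule protein Ngp 85.3 and 75.7 FPKM against 40.2 to 54.8 FPKM. Enzymes of primary granules were low in all samples. Mpo, the myeloperoxidase, averaged 10.3 and 8.99 FPKM against 4.23 to 8.09 FPKM, whereas for Elane, neutrophil elastase, the groups overlapped (8.17 and 5.58 FPKM against 3.65 to 6.42 FPKM). Both Stat6-/- samples were above all WT samples for 7, 8, 11, 10 and 4 of the 13 genes at 0, 1, 3, 6 and 24 h, and for 7.67%, 8.49%, 10.1%, 6% and 3.39% of all loci.

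Markers of mast cells, basophils and eosinophils were higher too, at low levels. Only 4 of 15 listed genes were tested, and both Stat6-/- averages were above all WT averages for all 4 (all loci 9.37%). None of the 4 passed on replicate averages, and 2 passed as higher with the replicate block (all loci 1.32%). Prg2, the eosinophil major basic protein, averaged 6.48 and 7.49 FPKM against 2.31 to 4.48 FPKM (log2 difference 1.00 ± 0.20, adjusted p = 0.128; 7.35e-04 with the replicate block), and Mcpt8, a basophil protease, 1.06 and 0.799 FPKM against 0.184 to 0.447 FPKM. The list summed to 13.2 and 14.1 FPKM against 6.52 to 8.72 FPKM, and 3 of its genes were at 0 in all 30 samples. The other marker lists held few tested genes, and none of these passed on replicate averages. By both averages, 2 of 3 dendritic cell genes, 2 of 2 B and plasma cell genes, 0 of 2 T, NK and innate lymphoid cell genes, 1 of 3 stromal and endothelial genes and 1 of 6 osteoclast genes were above WT, beside 9.37% of all loci. Cells of these kinds can persist in marrow cultures. Their part in the differences reported here was not tested.

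Some genes of MHC class II presentation were higher in the Stat6-/- cells. Both Stat6-/- averages were above all WT averages for 6 of 13 genes (all loci 9.37%), 5 passed as higher with the replicate block (1.32%) and none passed on replicate averages. The median log2 difference was 0.24. Measured from the WT mean, it was 0.13 in Stat6-/- replicate 1 and 0.39 in replicate 2, and from -0.14 to 0.15 in the WT replicates, so the list median of replicate 1 lay within the WT range. H2-Aa, an alpha chain, ran from 524 to 711 FPKM (median 583) in the Stat6-/- samples and from 216 to 462 FPKM (median 316) in the WT samples, without overlap, a log2 difference of 0.88 ± 0.14 (adjusted p = 0.108; 1.69e-04 with the replicate block). The beta chains H2-Ab1 and H2-Eb1 and the invariant chain Cd74 differed by 0.76, 0.93 and 0.63, all short of the threshold on averages and past it with the replicate block. Ciita, the transactivator of these genes, differed by 0.24 ± 0.16 (adjusted p = 0.614), with averages of 6.05 and 6.53 FPKM against 3.71 to 5.82 FPKM. The count of 6 was 12 without Stat6-/- replicate 1, when 31.4% of all loci lay above the WT averages.

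In the pathway that STAT6 serves, Stat6 was the only gene of 18 that passed. Il4ra, the ligand-binding chain of the IL-4 receptor, was 24.3 and 40.6 FPKM against 18.7 to 22.5 FPKM, a log2 difference of 0.60 ± 0.19 (adjusted p = 0.266; 0.00450 with the replicate block). Genes that IL-4 induces in macrophages were not lower as a group without IL-4. Of 28 tested, 0 were below (all loci 12.6%) and 5 above WT (9.37%) by both averages, and 4 passed as higher with the replicate block (1.32%). The median log2 difference was 0.18. Measured from the WT mean, it was 0.26 in Stat6-/- replicate 1 and -0.01 in replicate 2. By at least 2-fold with the same sign at all 5 times, 8 of the 28 were higher in replicate 1 (all loci 142 of 10919). In replicate 2 it was 1 (264 of 10919). Chi3l3 (Ym1), a chitinase-like lectin, averaged 43.1 and 35.0 FPKM against 17.7 to 25.2 FPKM and was above WT at all 5 times (log2 difference 0.84 ± 0.17, adjusted p = 0.128). The lectin Clec10a was 69.9 FPKM in Stat6-/- replicate 1 and 35.5 FPKM in replicate 2, against 26.3 to 34.1 FPKM. Of 20 genes that IL-4 represses, 2 were above and 3 below, near the shares of 9.37% and 12.6% over all loci, with a median of -0.10.

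Chemoattractant receptors were among the genes with large differences. Of 17 tested, 7 were above (all loci 9.37%) and 1 below WT (12.6%) by both averages. With the replicate block 5 passed as higher (1.32%) and 1 as lower (3.03%), and none passed on averages. The median difference of the 17 genes from the WT mean was -0.06 in Stat6-/- replicate 1 and 0.46 in replicate 2. Fpr1, a receptor for formylated peptides, was 9.62 FPKM in Stat6-/- replicate 1 and 27.8 FPKM in replicate 2, against 4.09 to 5.58 FPKM, a log2 difference of 1.63 ± 0.37 (adjusted p = 0.143). Fpr2 showed the same imbalance (18.7 and 55.5 FPKM against 10.1 to 15.0 FPKM). Cmklr1, the chemerin receptor, did not, at 21.9 and 25 FPKM against 8.90 to 16 FPKM (0.94 ± 0.21, adjusted p = 0.135; 4.46e-05 with the replicate block).

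Cholesterol synthesis genes were lower mainly in 1 replicate. Both Stat6-/- averages were below all WT averages for 11 of 25 genes (all loci 12.6%), 2 passed as lower with the replicate block (3.03%) and none on averages. The median difference was -0.49 in Stat6-/- replicate 1 and -0.06 in replicate 2. Without replicate 2 the count was 23, beside 30.6% of all loci, and without replicate 1 it was 11, beside 38.7%. Macrophage identity genes had a median near that of all loci, 0.06, with 4 above and 1 below of 22, beside 9.37% and 12.6% of all loci. Measured from the WT mean, the median was 0.04 in Stat6-/- replicate 1 and 0.26 in replicate 2. By at least 2-fold with the same sign at all 5 times, 6 of the 22 were higher in replicate 2 (all loci 264 of 10919). In replicate 1 it was 1 (142 of 10919). Emr1, which encodes F4/80, averaged 1031 and 1043 FPKM against 768 to 800 FPKM (0.38 ± 0.07, adjusted p = 0.122), and the scavenger receptor Marco 36.9 and 38.7 FPKM against 17.4 to 24.1 FPKM (0.88 ± 0.13, adjusted p = 0.0982). Of all 39 gene lists examined, 38 held no gene that passed on replicate averages.

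**Figure D4:**
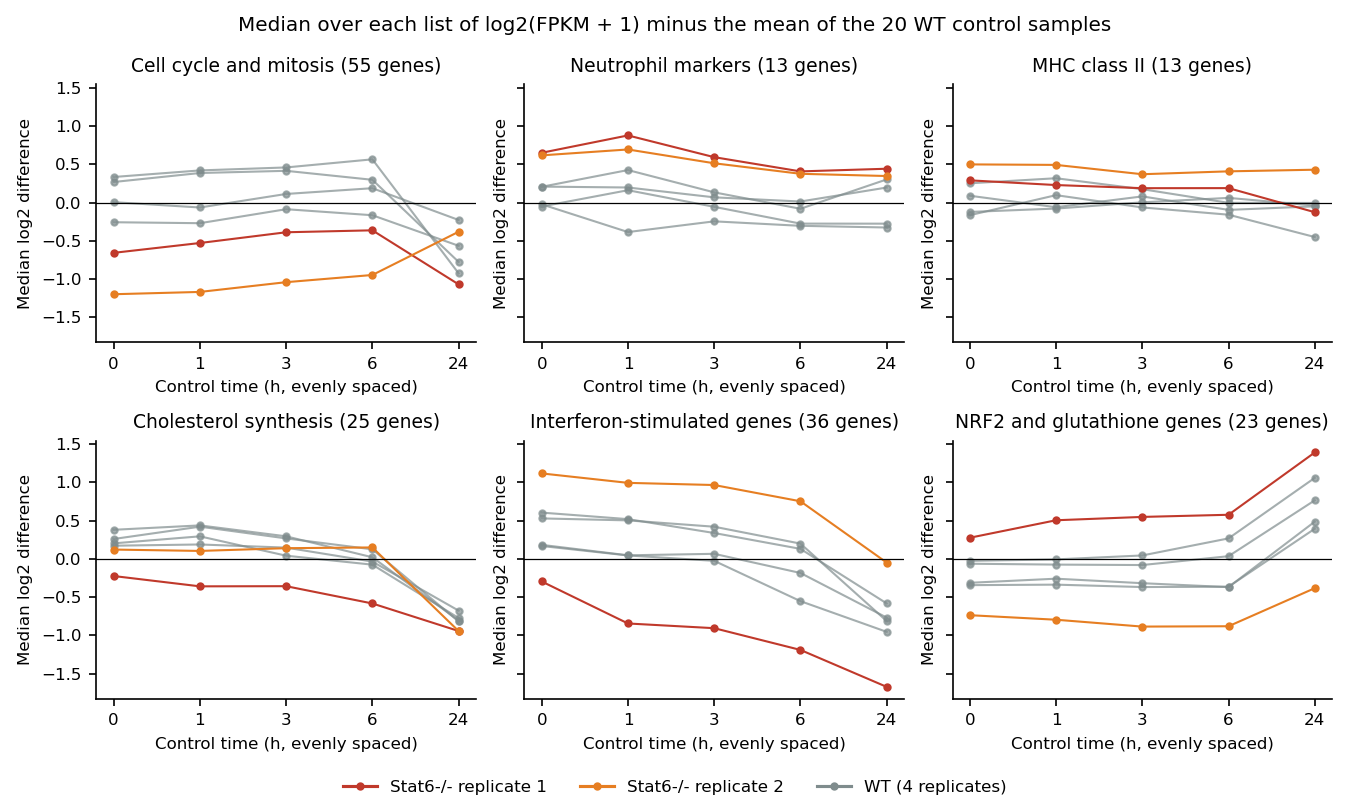
Median log2 difference from the mean of the 20 WT controls (vertical axes) of 6 gene lists in each sample against time (h, horizontal axes), with Stat6-/- replicate 1 in red, Stat6-/- replicate 2 in orange and the 4 WT replicates in grey. In both Stat6-/- replicates, cell cycle genes lay below the WT samples until 6 h, and neutrophil markers above them at every time, 24 h included. Interferon-stimulated and NRF2 genes lay on opposite sides of WT in the 2 replicates.

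Differences between the 2 Stat6-/- replicates were large in interferon-stimulated and oxidative stress genes, which had no common direction against WT. Type I interferon-stimulated genes were higher in replicate 2 than in replicate 1 by at least 2-fold, with the same sign at all 5 times, for 34 of 36 genes. Over all loci this held for 264 of 10919, and the opposite order for 142. The median difference of the 36 genes from the WT mean was -0.95 in replicate 1 and 0.79 in replicate 2. Both averages were above WT for 0 of the 36 (all loci 9.37%) and below for 1 (12.6%). The latter was Cxcl10, a chemokine (7.58 and 18.3 FPKM against 18.5 to 36.0 FPKM). Irf7, the master regulator of type I interferon, was 135 and 925 FPKM, with WT replicates at 195 to 513 FPKM between them. Guanylate-binding proteins and IRG GTPases, which defend against intracellular pathogens, had the same order for 15 of 19 (all loci 264 of 10919). The chemokine Ccl5 had one of the widest gaps, at 101 and 3102 FPKM, with 109 to 443 FPKM in WT, and Ly6a, the stem cell antigen Sca-1, was 47.7 and 896 FPKM with 86.6 to 357 FPKM in WT.

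The opposite order held for genes of the NRF2 pathway, which protects cells from oxidants. Of 23 tested, 14 were at least 2-fold higher in replicate 1 at all times (all loci 142 of 10919). The median difference from WT was 0.66 in replicate 1 and -0.80 in replicate 2. Gclm, the regulatory subunit of glutathione synthesis, was 151 and 21.2 FPKM with WT at 46.1 to 95.3 FPKM, and Nqo1, a quinone reductase, 16.5 and 1.45 FPKM with WT at 5.97 to 12.1 FPKM. Slc40a1, the iron exporter ferroportin, was 94.4 and 13.7 FPKM with WT at 40.1 to 82.7 FPKM. For 328 of the 406 loci (80.8%), all WT averages lay between the 2 Stat6-/- averages. The IL-4-treated samples of the same numbers had the same gap. Of the 406 loci, 403 (99.3%) kept the sign of the gap at all 4 IL-4 times. A difference between the genotypes in these genes could not be separated from the difference between the replicates.

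Few genotype differences depended on time by the test. The genotype by time interaction was called for 0 loci in limma (0%), 160 (1.47%) had an unadjusted p under 0.05, and 2 (0.0183%) passed with the replicate block, among them Fcrl1 (adjusted p = 0.0375). Fcrl1, a member of the Fc receptor-like family, read 20.2 and 20.1 FPKM against 15.5 to 16.4 FPKM at 0 h and 15.0 and 14.3 FPKM against 17.8 to 19.1 FPKM at 24 h. It was thus above the WT range at the start and below it at the end. Clec4e, the receptor Mincle, was called as lower at 24 h when that time was tested on its own, with 13.4 and 12.7 FPKM against 24.4 to 35.7 FPKM and a log2 difference of -1.16.

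Testing each time on its own with the spread of all 30 samples, limma called 150 loci (1.37%) at the start. It called 100 (0.916%) after 1 h, 40 (0.366%) after 3 h, 38 (0.348%) after 6 h and 10 (0.0916%) after 24 h. This spread treats samples of the same replicate number as independent. From the 6 samples of a time alone, 2 loci were called at 1 h (0.0183%) and 1 at every other time (0.00916%). Stat6 and Rnf41 were called at every time with the shared spread, Tmem176a at 0 and 1 h (adjusted p = 0.0246 and 0.0164), Cp at 0 and 1 h (0.0225 and 0.0277), and Aldoc at 0, 1, 3 and 6 h. Of the 55 cell cycle genes, 6 were called as lower at 0 h (all loci 102 of 10919) and 2 at 1 h (68 of 10919). At 3, 6 and 24 h it was 0 of 55, beside 30, 28 and 5 of 10919 loci.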

How the data were processed

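Poly-A RNA of each sample was sequenced with a kit that does not mark strand. The authors deposited 1 table of FPKM values per sample, made per the submitters' processing notes with TopHat2 2.0.7 and Cufflinks 2.0.2 on mm10; the gene annotation is not given in the sources used here. FPKM carries no read total, so no count test was run. Estimates under 1e-06 FPKM were set to 0.

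Of the loci in the tables, those with at least 1 FPKM in any of the 30 control samples were tested (81 of them share a symbol with another locus). Values were transformed here to log2(FPKM + 1) and averaged over the 5 times within each replicate number, and 2 Stat6-/- averages were compared with 4 WT averages in limma 3.58.1 (R 4.3.3, trended empirical Bayes, two-sided), with Benjamini-Hochberg adjustment over all 10919 loci and a threshold of 0.05. Numbers 1 and 2 occur in both genotypes, but no source ties them to a shared animal, batch or day, so the replicate block, a random effect with an estimated correlation of 0.339, was set within genotypes. Sums of FPKM over all loci were 410987 to 446970 in Stat6-/- and 385889 to 464915 in WT samples. The steps were tested on simulated data with replicate effects, drawn for both genotypes from the spread of the WT replicates. There the fit on averages kept false calls near its threshold. The block fit called nearly as many unchanged as changed loci and the fit without a block more unchanged than changed ones, so their calls are given as descriptions. In the measured data the Stat6-/- replicates differed more from each other than the WT replicates did, which the simulation did not cover. How the fit on averages behaves in that setting was not tested.

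Named genes were Stat6, Tmem176a, Tmem176b and Cp, called loci, up to 4 members of each gene list by adjusted p, and the loci with the smallest interaction p. Nab2, Ccnb2, Plk1, E2f2, Cdkn2d, Mpo, Elane, Mmp8, Ear2, Fpr2, Aldoc, Slco2b1, Il12rb2, Gyg, Csrp1, Fcna, Vcam1, Ifi30, Tbxas1, Csf1r, Cd68, Lyz2, Irf7, Ccl5, Ly6a, Gclm, Nqo1 and Slc40a1 were chosen after their values were seen. The samples, gene lists and named genes were chosen with earlier results of these data known. Some genes that the rule names are not reported here. Promoter windows are RefSeq's on GRCm38.p6, and 8146 of 10838 symbols matched 1. Alternatives were other pseudocounts, filters, scalings and variance settings, missing 0s, the replicate block, and leaving out each replicate or time. Files of the IL-4-treated samples were used only for the ranges printed with IL-4 and for the sign of the gap between the Stat6-/- replicates.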

Additional observations from a re-analysis of the deposited data

Results flagged for a closer look

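Among the 4 WT values of a gene, the highest or lowest stood apart from the other 3 by more of the whole range than Dixon's test allows in 6 groups, of 74 groups of averages and 25 groups at single times examined. Chance alone does this in about 1 in 20 groups. WT replicate 4 was the one apart in 4 of them, always as the highest. Cp in WT replicate 4 was 2.80 FPKM at 0 h against 1.92 to 1.93 FPKM (share of the range 0.984) and 2.80 FPKM at 3 h against 1.51 to 1.69 FPKM (0.861), below both Stat6-/- samples of those times. Tmem176a in WT replicate 4 was 73.9 FPKM at 3 h against 40.9 to 45.3 FPKM (0.868), also below both Stat6-/- samples. The integrin Itgax averaged 8.53 FPKM in WT replicate 4 against 4.47 to 5.05 FPKM (0.857). In WT replicate 1, Mvd, an enzyme of cholesterol synthesis, averaged 9.53 FPKM against 7.86 to 8.10 FPKM (0.853), and Rnf41 was 12.6 FPKM at 6 h against 13.5 to 13.7 FPKM (0.864).

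The genotype difference depended on time, by the interaction test in limma with the replicate block, for Fcrl1 (adjusted p = 0.0375), being positive at 0 h and negative at 24 h. Without the block it did not pass.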

How the results depend on the processing

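The number of loci called on replicate averages (2) was 4 after quantile normalization, 5 with 0s in otherwise high loci as missing and 1 without 6 h; of those with at least 2-fold differences (1), it was 3 with missing 0s and 2 without 24 h. The 30 samples gave 475 and 28 with the replicate block and 2441 and 31 with no replicate block. Numbers 1 and 2 occur in both genotypes, and the gap between them correlated little across genotypes (r from -0.03 to 0.10 over the 5 times). With the number as a replicate block across genotypes, added after seeing the data and leaving 1 residual degree of freedom, 0 and 0 loci passed, and 57 of 57 genes kept their direction. Leaving out 1 replicate moved the 2 calls between 0 (WT replicates 2, 3 and 4) and 1509 (Stat6-/- replicate 1; 24 without replicate 2), and the 2-fold calls between 0 and 211. A lone Stat6-/- sample is then assumed to vary like the WT replicates. The blocked count of 475 was 3373 without Stat6-/- replicate 1, 1676 without replicate 2 and 861 without 24 h.

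For single times, the 6 samples alone gave 1, 2, 1, 1 and 1 loci at 0, 1, 3, 6 and 24 h, and leaving out 1 replicate with the shared spread gave 28 to 1226, 25 to 1183, 12 to 1134, 11 to 1025 and 3 to 1417, each highest without Stat6-/- replicate 1. The interaction count of 0 was 2 with the replicate block and 0 to 72 without 1 replicate. The MHC class II count ranged from 6 to 12 and the cholesterol synthesis count from 11 to 23 without 1 Stat6-/- replicate, while the cell cycle (49 to 52) and neutrophil counts (11 to 12) stayed within 1.5 times. The log2 difference of Lyz2 was 2.92 as computed and -0.73 with its 0s as missing; it was the only 1 of 57 genes to turn direction under any setting. The cause of the other changes was not tested. Pseudocount, filters, median centring and robust variance changed no call among the 57 genes (55 with the stricter filter). With 2 Stat6-/- replicates, differences that vary between cultures could not be placed.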

Other observations

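Several gene lists not described above had medians near that of all loci (-0.01), with members on both sides. Respiratory chain and ATP synthase genes had a median log2 difference of -0.01 (38 genes), lysosomal genes -0.08 (34 genes), glycolysis and hypoxia genes 0.02 (27 genes), and histone deacetylases, NCoR corepressors and PRC2 members 0.00 (24 genes). In the last list 4 genes were above and 4 below WT by both averages, beside 9.37% and 12.6% of all loci, and in the glycolysis list 1 gene was above and 1 below WT at all 5 times (all loci 0.275% and 0.705%). Complement genes had a higher median, 0.32 over 17 genes, with 4 above and 0 below WT by both averages (all loci 9.37% and 12.6%), and it came from Stat6-/- replicate 2 (0.61) more than replicate 1 (0.06). Ezh2, the methyltransferase of PRC2, differed by -0.47 ± 0.11 (adjusted p = 0.149 in limma), with averages of 6.03 and 7.26 FPKM against 8.30 to 10.5 FPKM, and both Stat6-/- samples lay below all WT samples at 4 of the 5 times.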
